A study of Mus musculus with 5 samples.

Results

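Genes for chaperones and for the folding machinery of the endoplasmic reticulum (ER) were examined in the RNA recovered with Flag-tagged SAMD4 from mouse osteoblasts. They were chosen by name: the heat shock protein (Hsp), Dnaj, Pdia, Cct, Fkbp and Sec61 families together with Calr, Canx, P4hb, Serpinh1, Ppib, Stub1 and Ncln. This choice matched 19 of the 673 listed genomic intervals and 18 of the 753 listed gene names. The cells were SV40-immortalized calvarial osteoblasts from P5-P7 (postnatal day) Samd4PB/PB mice of the FVB strain, in which a piggyBac insertion disrupts Samd4, and they carried Flag-Samd4 from a lentivirus. All groups shared this genotype and this transgene: 2 libraries came from the anti-Flag immunoprecipitation (IP), 2 from IgG and 1 from input RNA. Reads of a group are given as 1 number per interval, so there were no replicates, and the input was not analysed here. An immortalized line that makes a tagged protein from a virus may hold other amounts of SAMD4 than bone does, and that amount was not measured here. Of 11 osteoblast marker genes the list held Col1a1, in 3 intervals with IP to IgG ratios of 3.72 to 5.06, so that most of the markers could not be checked in it. In such bulk extracts, few cells with much of an RNA and many cells with little of it cannot be told apart.

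Proteins that are secreted or set into membranes enter the ER through the Sec61 channel and are folded in its lumen by chaperones of the Hsp family, by lectin chaperones such as calreticulin, by protein disulfide isomerases and by prolyl isomerases of the FKBP family. Osteoblasts secrete large amounts of collagen, whose chains need proline hydroxylation and the collagen chaperone SERPINH1 in the ER. Cytosolic proteins are folded instead by Hsp70, Hsp90 and the ring-shaped CCT complex. SAMD4 is the mammalian homolog of Drosophila Smaug, an RNA-binding protein that represses translation and recognises short hairpins with the loop letters CNGG, where N is any base.

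Hairpins of that form were searched in the first 50 bases after each gene's start because most of the chaperone intervals lay at the beginning of their transcripts. A hairpin was counted on the RNA strand where the loop was CNGG, alone or with 1 to 3 more bases, and its stem had 4 or more pairs, including G-U pairs. All 18 gene names matched RefSeq annotation of build GRCm38.p6, and 15 of them had a start window in the sequence table used. Hairpins were found for Pdia3 (chr2:121413929-121413943, plus strand), Dnajb11 (chr16:22857871-22857885 and the overlapping chr16:22857877-22857888, plus strand) and Stub1 (chr17:25832901-25832913, minus strand). Each is written as DNA on the gene's strand with the loop letters CNGG in capitals.
Pdia3, bases 28 to 42 after the start: ggcagCGGGtctgcc
Dnajb11, bases 27 to 41: ctcgCCGGctctggg
Dnajb11, bases 33 to 44: ggctCTGGggct
Stub1, bases 7 to 19: tgcgCGGGctgcg
The Pdia3 hairpin had 5 stem pairs with 0 G-U pairs, and each of the others had 4 stem pairs of which 2 were G-U. Hairpins by this definition occurred in 3 of the 15 chaperone windows and in 9.01% of all 32851 windows in the table, and the bare letters CNGG in 13 of 15 and in 68.2%. A match is a description of the letters, not a binding site.

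The same windows, from 250 bases before to 50 bases after the start, were searched for the ER stress response element, to which the unfolded protein response factor ATF6 binds together with NF-Y. It was written as CCAAT, 9 bases of any kind and CCACG, on either strand. It is shown because Hspa5 and Calr, which hold it, were the ER genes with the most IP reads.
Hspa5, bases 65 to 47 before the start (chr2:34772025-34772043, plus strand): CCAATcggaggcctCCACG
Calr, bases 162 to 144 before the start (chr8:84847075-84847093, minus strand): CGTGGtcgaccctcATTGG
Capitals mark the fixed letters, which in Calr stand in the opposite orientation. The element occurred in 2 of 15 chaperone windows and in 0.119% of all windows. It lies in promoter DNA before the transcript and so outside the RNA that the IP could recover.

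Chaperone and ER folding intervals held 28 to 261 IP reads, with a median of 43, and 0 to 30 IgG reads, with a median of 3. The median over all 673 intervals was 74 IP reads and 6 IgG reads. Among the 17 intervals with IgG reads, ratios of IP to IgG reads ran from 4.77 for an internal interval of Ncln to 33.0 for Fkbp8. With a count of 0 IgG reads set to a floor of 3, the median ratio was 11.3 for the 19 and 8.33 for all intervals, and with a floor of 1 it was 12.8 and 10.5. A ratio of at least 10 was reached by 12 of the 19, against a background of 44.7% of all listed intervals. With a floor of 1 the count was still 12, against 52.2% of all. No IgG read was found in 2 of the 19, Stub1 and the 5′ interval of Ncln, against a background of 14.4%. The paper had already listed both genes as enriched in the Flag IP, with 34 IP and 0 IgG reads each. Each was chosen here by its own name, so the count of 2 follows from the choice of genes and is no separate finding. Both are also among the 12 that reached a ratio of 10, so that count rests in part on the same choice. The table lists only intervals that passed the authors' selection for more IP than IgG reads, so a ratio above 1 is no finding for any of them. The 95% interval of the ratio included the median of 8.33 for 16 of the 19 and lay just above it for Fkbp8, Stub1 and the 5′ interval of Ncln, but it lay above the median of 10.5, at a floor of 1, for 0 of the 19. The lower limit reached 10 for 0 of the 19, against 15.9% of all intervals. With 34 IP and 0 IgG reads this limit is 8.73, so members with 34 or fewer IP reads could not reach 10 at any IgG count. These intervals cover the counting error of PCR-amplified reads without molecular identifiers, and they compare pools of reads, not conditions. The ratios are of reads as counted. With the IgG reads multiplied by the depth factor of 1.64 that the deposited p-values carry, 6 of the 19 and 27.3% of all intervals reached a ratio of 10. This factor was absent from the p-values of all 97 intervals with 0 IgG reads, and with it applied only to IgG reads above 0 the values were 8 of the 19 and 30.2%.

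**Figure D1:**
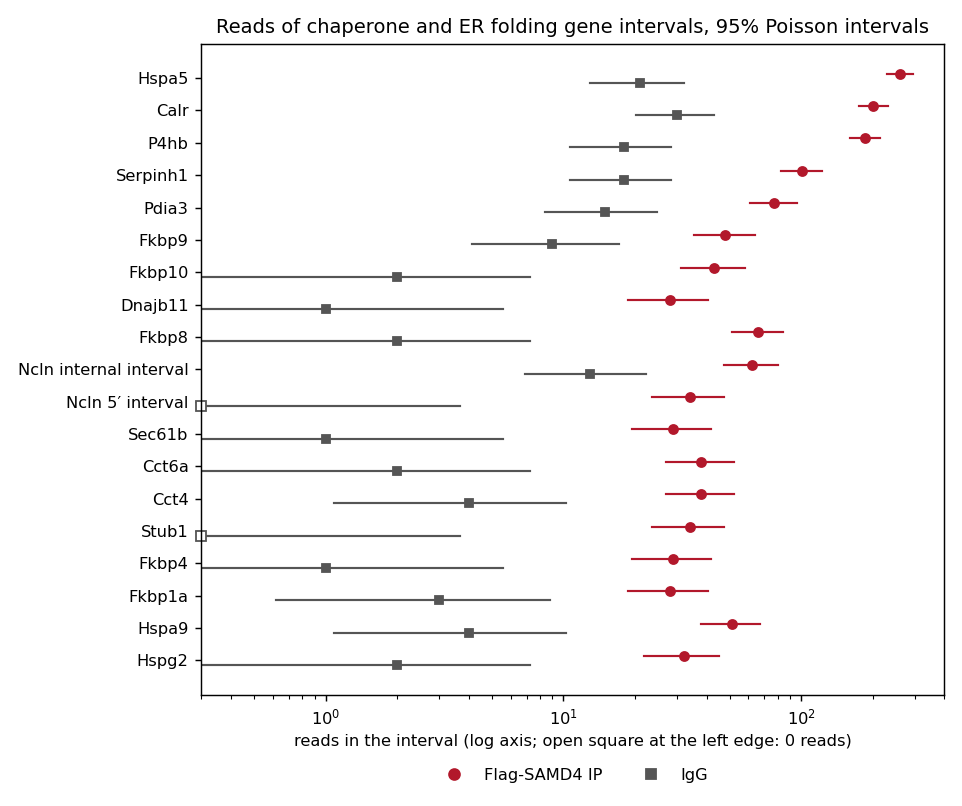
Reads per interval on a log axis, in the Flag-SAMD4 IP (circles) and the IgG (squares), with 95% Poisson intervals, for the 19 chaperone and ER folding intervals grouped as in the text. IP reads run from 28 to 261 and IgG reads from 0 (open squares at the left edge) to 30, and lines that reach the left edge go on below the axis.

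Hspa5 and Calr, general chaperones of the ER lumen, had the most IP reads of all the members. Hspa5 encodes BiP, the Hsp70 of the ER. Its interval (mm9, chr2:34627620-34627974, plus strand) held 261 IP reads (230 to 295, the 95% Poisson limits) against 21 IgG reads, and the ratio was 12.4 (7.96 to 20.4, its 95% limits). It was 355 bases long, began at base 11 of the RefSeq transcript and shared 222 bases with the 5′ UTR and 125 with coding sequence, so that it ran over the start codon. Calr encodes calreticulin, a calcium-binding lectin chaperone. Its interval (chr8:87370607-87370760, minus strand) held 201 IP reads (174 to 231) and 30 IgG reads, the most IgG reads of any member, and its ratio was 6.70 (4.55 to 10.2). With 154 bases, 63 of them in the 5′ UTR and 91 coding, it was the densest of the 19 at 131 IP reads per 100 bases, against 73.5 for Hspa5 and a median of 18.6 over all intervals. The ratio intervals of both genes overlapped, but the quotient of the ratios was not computed, and overlap alone does not show that they were alike. Among all 673 intervals Hspa5 ranked 83 and Calr 109 by IP reads, but 239 and 399 by ratio.

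Of the disulfide isomerases, P4hb had more IP reads and the higher ratio, while the difference between its ratio and that of Pdia3 lay within counting error. P4hb encodes protein disulfide isomerase, which is also the β subunit of collagen prolyl 4-hydroxylase. Its interval (chr11:120433971-120434233, minus strand) held 186 IP reads (160 to 215) and 18 IgG reads, a ratio of 10.3 (6.36 to 17.8), and shared 112 bases with the 5′ UTR and 151 with coding sequence. Pdia3 encodes ERp57, the isomerase that works with calreticulin on glycoproteins. Its interval (chr2:121239624-121240103, plus strand) held 77 IP reads (60.8 to 96.2) and 15 IgG reads, a ratio of 5.13 (2.93 to 9.61). The ratio of P4hb over that of Pdia3 was 2.01 with an exact 95% interval of 0.892 to 4.46. The Pdia3 interval began 14 bases before the RefSeq start and held 137 bases of 5′ UTR, 167 coding and 162 intronic bases. It also lay in an intron of Catsper2 on the opposite strand, and the sources used here do not say whether reads were counted by strand.

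Serpinh1 encodes HSP47, the chaperone specific to procollagen. Its interval (chr7:106501205-106501666, minus strand) held 101 IP reads (82.3 to 123) and 18 IgG reads, a ratio of 5.61 (3.38 to 9.85). It was the interval among the ER lumen genes without a coding base, with 275 bases in the 5′ UTR and 187 in an intron.

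Fkbp9, Fkbp10 and Dnajb11 had the fewest reads among the ER lumen genes, and their ratios spread from 5.33 to 28.0. Fkbp9 and Fkbp10 encode prolyl isomerases of the ER, and FKBP10 (FKBP65) also acts as a collagen chaperone whose loss causes brittle bones in humans. Fkbp9 (chr6:56782121-56782421, plus strand) held 48 IP reads (35.4 to 63.6) and 9 IgG reads, a ratio of 5.33 (2.59 to 12.4). Fkbp10 (chr11:100281667-100281859, plus strand) held 43 IP reads (31.1 to 57.9) and 2 IgG reads, a ratio of 21.5 (5.60 to 183). Their IP counts had overlapping intervals, and the ratio of Fkbp9 over that of Fkbp10 was 0.251 (0.0251 to 1.31), so that they differed by less than counting error allows to tell. The Fkbp9 interval lay at the 5′ end of the gene, with 80 bases of 5′ UTR and 221 coding bases, whereas that of Fkbp10 began at base 4660 of the RefSeq transcript's span and held 146 coding and 47 intronic bases. Dnajb11 encodes ERdj3, a J-domain partner of BiP. Its interval (chr16:22857924-22858182, plus strand) held 28 IP reads (18.6 to 40.5) and 1 IgG read, and the ratio of 28.0 had an interval of 4.63 to 1145. It began at base 7 of the transcript and held 191 bases of 5′ UTR and 68 coding bases. If mm9 and GRCm38.p6 place the starts alike, which was not compared, the hairpins at bases 27 to 44 of Dnajb11 and 28 to 42 of Pdia3 would lie within their intervals.

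The ER membrane group held 4 intervals of Fkbp8, Sec61b and Ncln, with 29 to 66 IP reads and 0 to 13 IgG reads. Fkbp8 encodes FKBP38, a tail-anchored protein that is found in the outer membrane of mitochondria as well as in the ER. Its interval (chr8:73052994-73053574, plus strand) held 66 IP reads (51.0 to 84.0) and 2 IgG reads, a ratio of 33.0 (8.78 to 278), the highest among the 17 intervals with IgG reads. It began at base 1353 of the RefSeq transcript's span and shared 23 bases with the 5′ UTR, 262 with coding exons and 296 with introns. Sec61b encodes the β subunit of the Sec61 channel. Its interval (chr4:47487784-47488019, plus strand) held 29 IP reads (19.4 to 41.6) and 1 IgG read, a ratio of 29.0 (4.81 to 1184), with 98 coding and 138 intronic bases.

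Ncln encodes nicalin, an ER membrane protein that works with NOMO and TMEM147, and it was the member with more than 1 interval. The 5′ interval (chr10:80958825-80959097, minus strand) held 34 IP reads (23.5 to 47.5) and 0 IgG reads, where a count of 0 allows up to 3.69 reads. Against the floor of 3 reads per interval the IP was at least 11.3-fold higher, and with the counting error of the IP reads included the lower limit of the ratio was 8.73. This interval began at base 12 of the transcript and held 89 bases of 5′ UTR and 184 coding bases. The internal interval (chr10:80952972-80953691, minus strand) held 62 IP reads (47.5 to 79.5) and 13 IgG reads, a ratio of 4.77 (2.60 to 9.45), the lowest among the members with IgG reads. It was listed with short non-coding transcripts, with at most 42 exonic bases, and 678 of its 720 bases lay outside them but within the span of the coding gene. The ratio of the 5′ interval was at least 1.54 times that of the internal interval at the lower 95% limit, so that the pair differed beyond counting error. Ncln was chosen by its own name, and the paper had already listed it with 0 IgG reads. This difference follows in part from that choice and is no independent finding.

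The cytosolic genes formed a narrow set by reads, with 28 to 38 IP reads and 0 to 4 IgG reads in each of 5 intervals. Cct4 and Cct6a encode subunits of the CCT ring, which folds actin and tubulin. Both intervals held 38 IP reads (26.9 to 52.2). Cct4 (chr11:22890610-22890880, plus strand) had 4 IgG reads and a ratio of 9.50 (3.42 to 36.6), and Cct6a (chr5:130293260-130293472, plus strand) had 2 IgG reads and a ratio of 19.0 (4.91 to 163). The ratio of Cct6a over that of Cct4 was 1.98 (0.266 to 23.2), which rests on a difference of 2 IgG reads. Both began within the first exon, at bases 18 and 29 of their transcripts, and crossed the start codon.

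Stub1 encodes CHIP, a ubiquitin ligase that acts on clients of Hsp70 and Hsp90. Its interval (chr17:25969612-25969882, minus strand) held 34 IP reads (23.5 to 47.5) and 0 IgG reads. Against the floor of 3 reads this was at least 11.3-fold higher in the IP, and with counting error the lower limit was 8.73. The Stub1 interval began at base 425 of the transcript's span and held 84 bases of 5′ UTR, 162 coding and 25 intronic bases, so the hairpin at bases 7 to 19 after the GRCm38.p6 start would lie before it on the same condition. Fkbp4 encodes FKBP52, a cochaperone of Hsp90 on steroid receptors. Its interval (chr6:128388424-128388669, minus strand) held 29 IP reads (19.4 to 41.6) and 1 IgG read, a ratio of 29.0 (4.81 to 1184). Fkbp1a encodes FKBP12, the target of the drugs FK506 and rapamycin. Its interval (chr2:151368554-151368601, plus strand) held 28 IP reads (18.6 to 40.5) and 3 IgG reads, a ratio of 9.33 (2.88 to 48.0). It was the shortest of the 19, with 48 bases that matched 1 coding exon, and reached 58.3 IP reads per 100 bases.

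The remaining members were Hspa9 and Hspg2. Hspa9 encodes mortalin, the Hsp70 of mitochondria. Its interval (chr18:35113449-35113995, minus strand) held 51 IP reads (38.0 to 67.1) and 4 IgG reads, a ratio of 12.8 (4.69 to 48.6), and 375 of its 547 bases were intronic. This ratio and that of Hspa5, its relative in the ER, gave a quotient of 0.975 (0.233 to 3.06, Hspa5 over Hspa9). Hspg2 encodes perlecan, a proteoglycan of the matrix that is no chaperone and was matched by its name alone. Its interval (chr4:137119906-137120024, plus strand) held 32 IP reads (21.9 to 45.2) and 2 IgG reads, a ratio of 16 (4.08 to 138), far inside the gene at base 95189 of the transcript's span. Without Hspg2, 11 of 18 intervals reached a ratio of 10.

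**Figure D2:**
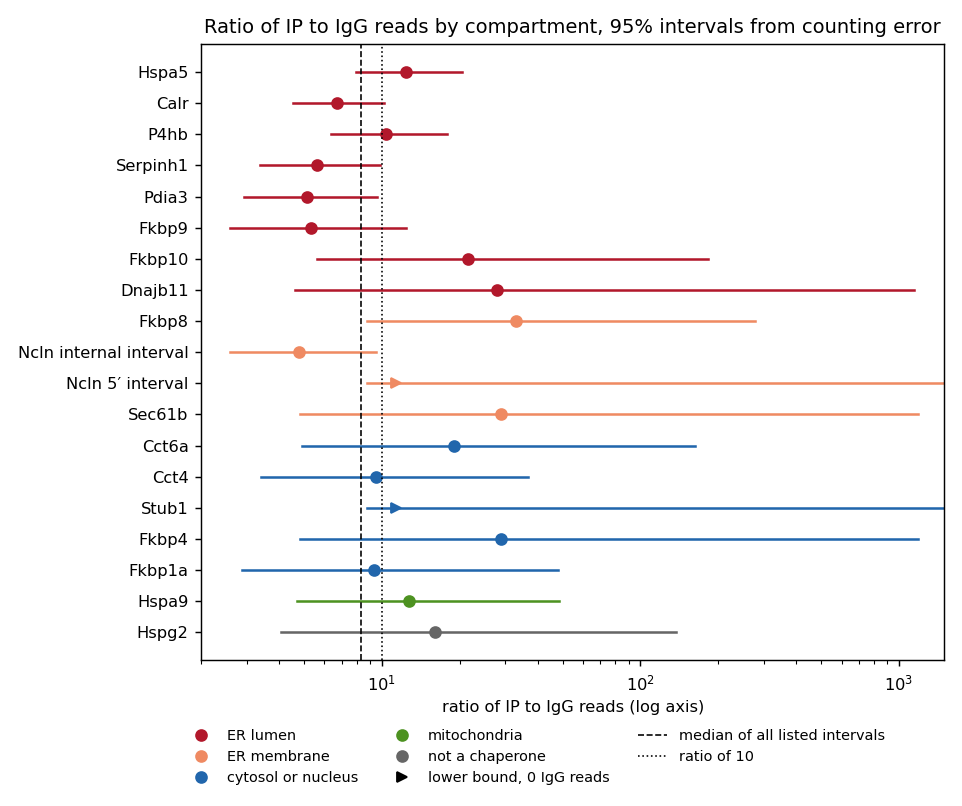
Ratio of IP to IgG reads of each of the 19 intervals on a log axis, coloured by compartment, with 95% Clopper-Pearson intervals. Triangles are lower bounds at the floor of 3 reads, before counting error, for the 2 intervals with 0 IgG reads. Their lines begin at 8.73, the limit with counting error, and have no upper limit. The median of all 673 listed intervals at a floor of 3 (8.33, dashed) crosses 16 of the 19 lines.

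Among the pairs compared, most differences were small against their counting error. Other pairs of members were not compared. Of 14 pairs compared (the Ncln pair, the 10 pairs of Fkbp genes, and Cct6a with Cct4, P4hb with Pdia3 and Hspa5 with Hspa9), 2 had a 95% interval that left out a quotient of 1, with no adjustment for the number of pairs. These were the Ncln pair, whose 0 IgG reads in the 5′ interval were known beforehand, and Fkbp8 over Fkbp9, at 6.10 (1.19 to 60.6). The Fkbp genes fell into higher ratios for Fkbp8, Fkbp4 and Fkbp10, with 1 or 2 IgG reads each, and lower ratios for Fkbp1a and Fkbp9, with 3 and 9 IgG reads. Neighbours in that order did not differ beyond counting error. Farther apart in it, the quotient of Fkbp4 over Fkbp9 was 5.36 with an interval of 0.681 to 246.

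ER lumen genes had more reads in both pools than cytosolic genes and a lower median ratio, but the order of the medians, unlike that of the summed reads, turned among intervals with fewer than 50 IP reads. The 8 ER lumen intervals held 28 to 261 IP reads (median 89) and 1 to 30 IgG reads (median 16.5), and the 5 cytosolic intervals 28 to 38 IP reads (median 34) and 0 to 4 IgG reads (median 2). The median ratio was 8.52 in the ER lumen (range 5.13 to 28.0) and 11.3 in the cytosol (9.33 to 29.0), so the ranges overlapped. The cytosolic median is the lower bound of Stub1 at a floor of 3 reads, and with a floor of 1 it was 19, with 34 for Stub1 as the highest value. A ratio of 10 was reached by 4 of 8 and by 3 of 5, both near the 44.7% of all intervals, and the cytosolic share near the 57.0% of all intervals with fewer than 50 IP reads. Both shares of all intervals are at the floor of 3 reads, which holds many shallow intervals with 0 IgG reads below 10. Summed over each class, the reads were 945 against 114 in the ER lumen and 167 against 10 in the cytosol, ratios of 8.29 and 16.7. The quotient of these sums was 0.497 with an exact 95% interval of 0.227 to 0.973, which takes the reads of a class as 1 pool and leaves out the spread among its genes. The cytosolic sum, median and 3 of 5 include Stub1, chosen by its own name and already listed by the paper with 0 IgG reads. The limits of this quotient are therefore no independent evidence of a difference between the classes, and the quotient without Stub1 was not computed. No cytosolic interval held 50 or more IP reads. Among intervals with fewer than 50 IP reads, the median ratio was 21.5 over the 3 ER lumen genes Fkbp9, Fkbp10 and Dnajb11 and 11.3 over the cytosolic 5, or 19 with a floor of 1. The quotient of the sums there was 0.595 (0.222 to 1.56), with the ER lumen still the lower.

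In the whole list the lowest ratio fell with depth, from 5 among the 221 intervals with fewer than 50 IP reads to 3.23 among the 191 with 50 to 99 and 2.52 among the 189 with 100 to 300, while the median did not fall steadily and the upper quartile rose, from 16 to 17.8 and 34.5. Of the 221 shallow intervals 57.0% reached a ratio of 10, with a median of 11, and 8 of the 11 members among them did, with a median of 16. Of the 191 with 50 to 99 reads 40.3% reached it, with a median of 7, and 2 of the 4 members among them did, with a median of 8.94. Of the 189 deepest of these 43.4% reached it, with a median of 7.26. The 4 members among them, Hspa5, Calr, P4hb and Serpinh1, were all from the ER lumen and had a median of 8.52, and 2 of them reached it. At the floor of 3 reads, an interval with 0 IgG reads and 29 or fewer IP reads cannot reach a ratio of 10. The members with 0 IgG reads held 34 IP reads and were not affected. The 57.0% and the 8 of 11 are therefore not counted on equal terms. What part depth plays in the ER and cytosol values was not tested.

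**Figure D3:**
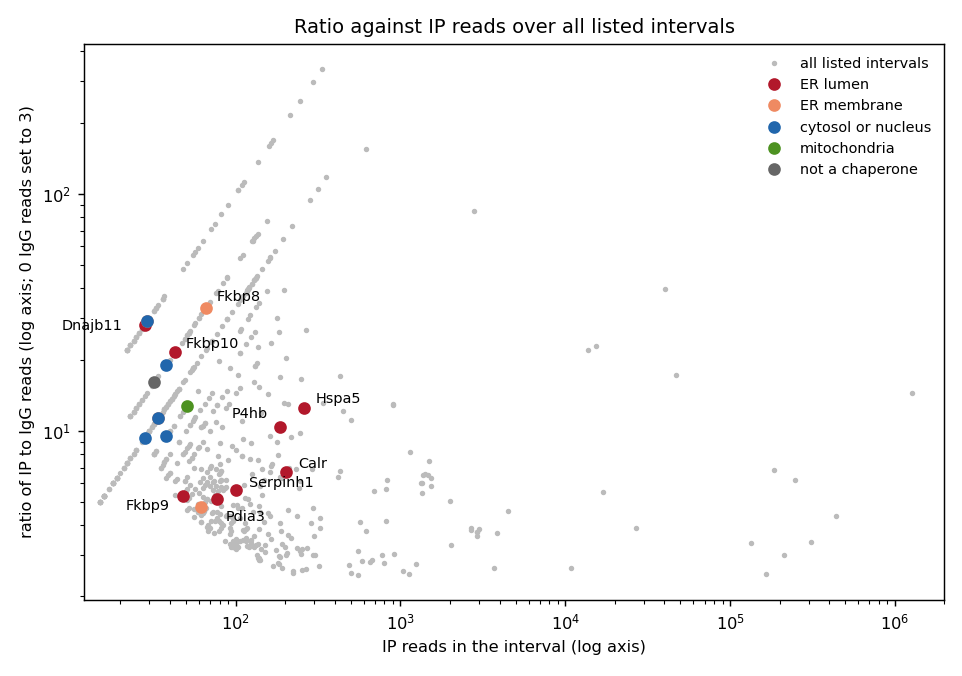
Ratio of IP to IgG reads against IP reads, both on log axes, for all 673 listed intervals (grey) and the 19 chaperone and ER folding intervals (coloured by compartment, some named). A count of 0 IgG reads was set to 3, and Stub1 and the 5′ interval of Ncln fall on the same point. The 5 cytosolic intervals all lie below 50 IP reads, and the 4 deepest coloured points are ER lumen genes.

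Most of these intervals lay at the 5′ end of their genes, across the start codon. A 5′ UTR of any listed transcript of the gene was touched by 15 of 19 intervals (78.9%, 95% Clopper-Pearson interval 54.4 to 93.9), against 55.3% of all 673. A coding exon was touched by 17 of 19, against 72.8%. No interval touched a 3′ UTR, 0 of 19 with an upper limit of 17.6%, against 14.7% of all. For each of these parts the share of all intervals lay inside the 95% interval of the 19. On the RefSeq transcripts alone, 14 of 18 intervals shared 5′ UTR bases and 13 shared both 5′ UTR and coding bases, 12 began within the first 100 bases or before them, and 15 within the first 500. Those farther inside were Fkbp8, Fkbp10 and Hspg2, and Fkbp1a touched a 5′ UTR in other transcripts than the RefSeq one. Touching a 5′ UTR was common to both compartments, with 7 of 8 ER lumen intervals and 5 of 5 cytosolic ones, and 2 of 4 in the ER membrane group.

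Counted by bases, the 19 intervals covered 5992 bases, of which 28.2% were 5′ UTR, 37.9% coding, 0% 3′ UTR and 21.3% intronic, and 11.9% lay outside the reference transcript. Of these 712 outside bases, 678 were in the internal interval of Ncln. They lay outside its short non-coding reference but within the span of the coding gene, and were not assigned to exon or intron. Introns were touched by 11 of 19, against 60.0% of all intervals. At least 1 end fell on an exon edge in 13 of 19, against 43.2% of all. Intronic bases were most numerous in Hspa9, Fkbp8, Serpinh1 and Pdia3.

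**Figure D4:**
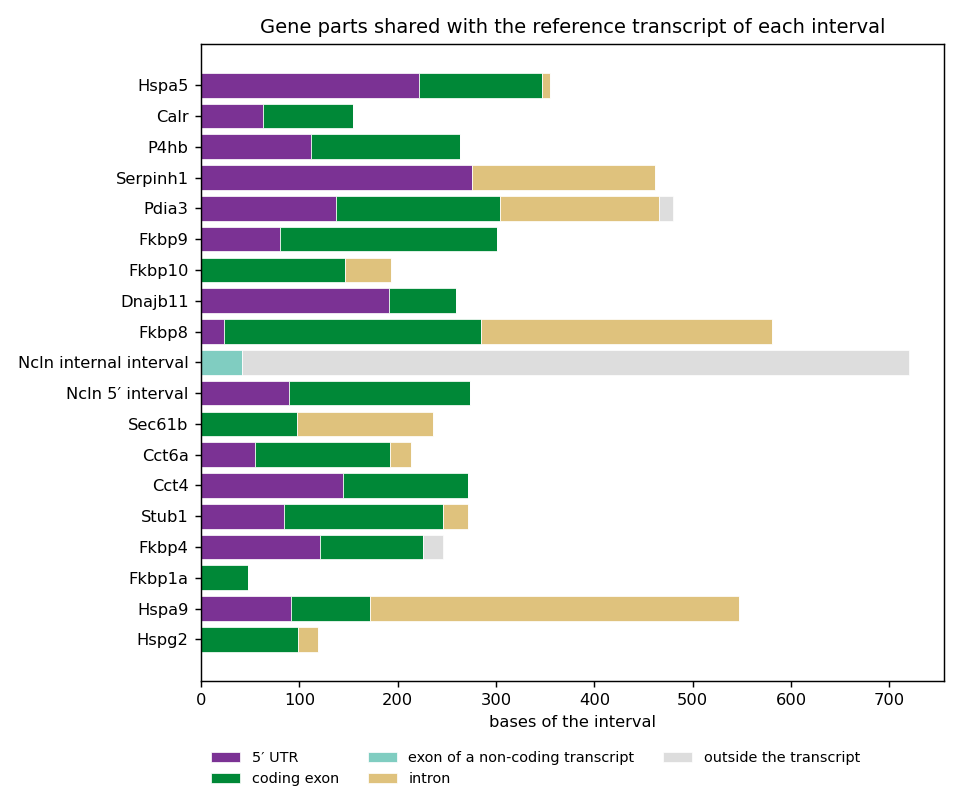
Bases of each interval, stacked by the part of the reference transcript they share (5′ UTR, coding exon, exon of a non-coding transcript, intron, or outside the transcript). 5′ UTR bases appear in 14 of the 19 bars, none shows a 3′ UTR, and the internal interval of Ncln lies almost wholly outside its short transcripts.

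Genes that work beside the chaperones were listed in part. Of 25 other genes of ER folding and sorting 7 had an interval, and 3 of those 7 reached a ratio of 10, near the 44.7% of all intervals. Hyou1, a large chaperone related to BiP, held 64 IP and 14 IgG reads, a ratio of 4.57 (2.54 to 8.83). Qsox1, a sulfhydryl oxidase of the secretory pathway, held 62 and 6 reads, a ratio of 10.3 (4.49 to 29.2). Rpn1, a subunit of the oligosaccharyltransferase, held 57 and 2 reads, a ratio of 28.5 (7.54 to 241). Sel1l, an adaptor of ER-associated degradation named after its values were seen, had 18 IP and 0 IgG reads. Against the floor of 3 reads this was at least 6-fold higher in the IP, and with counting error the lower limit was 4.40. In the translocation group 2 of 19 genes were listed. Ssr1, of the translocon-associated complex, held 63 and 7 reads, a ratio of 9 (4.12 to 23.3), and Spcs3, a signal peptidase subunit, 33 and 1, a ratio of 33.0 (5.52 to 1342). Of 18 genes in the list for collagen modification, 2 had an interval, Kdelr2 and Plod3. Kdelr2 encodes the receptor that returns ER proteins from the Golgi and is no collagen-modifying enzyme. Plod3 encodes a lysyl hydroxylase of collagen, and its interval is shared with Znhit1. The ratios of Kdelr2 and Plod3 were 5.07 (2.83 to 9.74) and 8.17 (3.49 to 23.3), below 10 for both.

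Outside the ER, 3 of 21 cytosolic cochaperones and CCT partners were listed. Cdc37, which brings kinases to Hsp90, had an interval with 51 IP and 2 IgG reads, a ratio of 25.5 (6.71 to 216), and another with 67 and 13 reads, a ratio of 5.15 (2.82 to 10.2). Ptges3, the Hsp90 cochaperone p23, held 52 and 2 reads, a ratio of 26.0 (6.84 to 220), and Bag6, which guards exposed membrane segments in the cytosol, 52 and 4 reads, a ratio of 13.0 (4.78 to 49.5). Of 21 genes of the ubiquitin and proteasome group 3 were listed. Vcp, the ATPase that extracts ubiquitylated proteins, held 76 and 2 reads and had a ratio of 38.0 (10.2 to 319). Uba1, the ubiquitin-activating enzyme, held 30 and 1 reads, and Psmb5, a catalytic subunit of the proteasome, 44 and 6, ratios of 30 (4.99 to 1224) and 7.33 (3.11 to 21.1). None of 10 genes of the unfolded protein response signalling group had an interval.

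By class, the list held 8 of 22 genes of the ER lumen, 3 of 13 of the ER membrane, 5 of 48 of the cytosol or nucleus and 1 of 9 of mitochondria. The share of all annotated genes that have a listed interval was not computed, and neither was the expression of the genes. These counts, and those of the lists above, therefore do not show that any class is listed more often than other genes. Canx, Ppib and Hsp90b1, central to ER folding, were not among the listed names and were not analysed here. An unlisted gene is not shown to lack reads, since the list holds selected intervals only.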

How the data were processed

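RNA immunoprecipitation and sequencing were done by the authors on 5 libraries, which were grouped by their titles and sources. The antibody field of the IgG libraries reads Flag, whereas titles, sources and the paper name IgG. The submitters' processing notes name TopHat2 2.0.9 and mm9. The sources used here name no interval caller and do not say whether strand was used or the 2 libraries of a group were pooled. The authors' deposited table has 16285 lines for 673 intervals, with a count of reads in the IP and in the IgG and a number of overlapping bases per transcript. The deposited p-value, q-value and fold (a ratio) columns hold the authors' own comparison. Their p-values served only to find a depth factor, 1.64, from 517 intervals, and fold and q-values were not used. Library depth is unknown. Over the list, IP reads sum to 3260616 and IgG reads to 567264.

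From the counts, ratios of IP to IgG reads were computed with 95% Clopper-Pearson intervals, counts with Poisson intervals, and quotients of ratios with exact conditional intervals (scipy 1.17.1, Python 3.11.15). A count of 0 was set to a floor of 3 reads for folds. No p-value is given, since the intervals were selected for more IP reads. The computations were tested on simulated data. Bases shared with gene parts were recomputed from the coordinates, on the RefSeq transcript where the table gave it. Promoter windows came from RefSeq, GRCm38.p6. The genes, classes and lists were chosen with earlier results of these data known. Named were all members and, of each list, up to 3 genes with the most IP reads. Alternatives changed the floor, the fold limit, the depth factor, the overlap, the gene parts, shared and repeated intervals, the minimum of IP reads, the classes and their summary.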

Additional observations from a re-analysis of the deposited data

How the results depend on the processing

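No paired analysis was possible because the deposited columns carry 1 number for the IP and 1 for the IgG, without the replicate numbers of the libraries. The count of 12 intervals with a ratio of at least 10 fell to 6 (27.3% of all intervals) with IgG reads scaled by 1.64, to 5 (23.9% of all) at a limit of 20, and to 0 (15.9% of all) where the lower limit of the 95% interval had to reach 10, which the shallowest members could not do. At a limit of 5 it was 18, against 75.8% of all, and with a floor of 1 read it stayed at 12, against 52.2% of all. The count of 2 intervals with 0 IgG reads became 1 when the deepest interval of each gene was kept, since Ncln is then represented by its internal interval. The median ratio of the ER lumen over that of the cytosol, 0.751, became 0.448 with a floor of 1 read and 0.496 with summed reads, and it reversed to 1.90 among intervals with fewer than 50 IP reads, or 1.13 there with a floor of 1, settings chosen after seeing the data. For these changes, apart from the construction of each setting, the cause was not tested. Leaving out each ER lumen or cytosolic interval in turn gave 0.562 to 0.912. Scaling moved 5 of the 19 single ratios outside their 95% intervals and left 14 inside, and the floor of 1 read moved 0. The 5′ UTR share stayed at 76.5 to 82.4% under the alternatives for overlap, shared names, exon bases and repeated intervals. With 0 to 4 IgG reads in 12 of 19 intervals, the depth leaves most ratios without a useful upper limit.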
